A study of Mus musculus with 6 samples.

Results

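The genes described here are 9 members of the SOX family of transcription factors, Sox4, Sox5, Sox6, Sox8, Sox9, Sox10, Sox12, Sox13 and Sox18, taken by gene symbol from a deposited comparison that lists 39527 genes. The comparison is of group 2 innate lymphoid cells (ILC2s), tissue lymphocytes that make type 2 cytokines, sorted from the lungs of mice after 4 days of challenge with the alarmin IL-33. The WT group is R5/+ (3 samples) and the KO group is R5/+LKB1f/f (3 samples), so that both groups carry the R5 allele and IL-33 treatment and differ in the floxed alleles of LKB1, the kinase encoded by Stk11. The cells of 3 to 4 mice were pooled for each sample, so that the spread between single animals cannot be seen, and ages are not given in the labels. The labels do not say in which cells R5 acts.

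SOX proteins bind the minor groove of DNA through an HMG box and bend it, and they are sorted into groups by the similarity of that box. SoxC proteins (Sox4, Sox12) act in lymphoid and neuronal progenitors, SoxD proteins (Sox5, Sox6, Sox13) lack an activation domain and work as partners of other factors, SoxE proteins (Sox8, Sox9, Sox10) direct cartilage, gonad, glia and neural crest development, and Sox18, of the SoxF group, acts in blood and lymphatic endothelium. Among lymphocytes, Sox4 and Sox13 are best known from T cells, Sox13 from the interleukin-17-producing gamma-delta lineage.

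Sox8 differed between the genotypes by about 15-fold, and its mean count, taken over the genotypes together, was by far the largest of the members. To show the locus, the 250 bases before its annotated start are printed from RefSeq (GRCm38.p6, the mm10 assembly, chr17:25570687-25570936, minus strand, read 5′ to 3′ along the gene). The capitals mark 1 E-box (CACGTG) and 2 GC boxes (GGGCGG).

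Sox8 upstream bases: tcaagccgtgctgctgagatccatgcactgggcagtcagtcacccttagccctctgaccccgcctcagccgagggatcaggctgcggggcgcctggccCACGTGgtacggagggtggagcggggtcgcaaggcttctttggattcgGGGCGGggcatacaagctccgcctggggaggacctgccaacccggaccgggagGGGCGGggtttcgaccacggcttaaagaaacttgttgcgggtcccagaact

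This stretch was 65.6% G and C, against a median of 52.4% over 32851 promoter windows of the same length in the RefSeq table, and it held 18 CG pairs against a median of 6. On either strand, CACGTG was present in 6.02% and GGGCGG in 32.7% of those windows. The letters ACAAAG and ACAAT (cores of SOX sites), GGAAA (core of NFAT sites), TGACG (part of cAMP response elements), AGATAA (core of GATA sites) and TATAAA had 0 matches on either strand here. They occurred in 16.5%, 27.7%, 55.6%, 17.8%, 9.99% and 12.4% of all windows in this order. The marked motifs do not overlap each other, and a match describes letters, not a bound site. The RefSeq table held windows for 6 of the 9 members, without Sox9, Sox10 and Sox18.

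The values used are the gene-level results of the authors' deposited table, with 1 log2 fold change and its standard error (SE) per gene and a mean normalized count over the libraries of the authors' fit. The per-sample columns carry names that match no label and were not used, so that no value per sample, no depth per sample and no overlap between samples is given. Neither the labels nor the headers say which genotype is the numerator, and signs are given as deposited. Stk11, the floxed gene, had a log2 fold change of -1.34 ± 0.30 (SE) per the authors' deposited table, over the whole gene and at a mean of 652 normalized counts. A positive value below has the sign opposite to that of Stk11. ILC2 markers were present, with all 13 tested and Gata3, the lineage factor, at a mean of 44552 normalized counts per the authors' deposited table. In that list 2 markers were called positive, Gata3 among them at 0.63 ± 0.16 (SE), and 3 negative, Il13 among them at -1.06 ± 0.18 (SE), per the authors' deposited table. These calls are 38.5% of the list, against 24.5% of all tested genes. Among genes within 1.2-fold of each marker's mean, the median share called was 50.6%.

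Of the 9 members, 6 had an adjusted p in that table and 3 (Sox4, Sox10 and Sox12) had none, as for every gene below a mean of 10.46 normalized counts. At an adjusted p under 0.05, 1 member was called with a positive sign (Sox8) and 0 with a negative sign. Over all 14961 genes with an adjusted p, 11% were called positive, 13.5% negative and 24.5% in either direction. The members were chosen by family and with the fold changes and p-values of this comparison known, so that their counts and p-values are a description. The median log2 fold change of the 6 members was 0.31, against -0.0056 over all tested genes, and that of the 5 without Sox8 was -0.17.

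**Figure D1:**
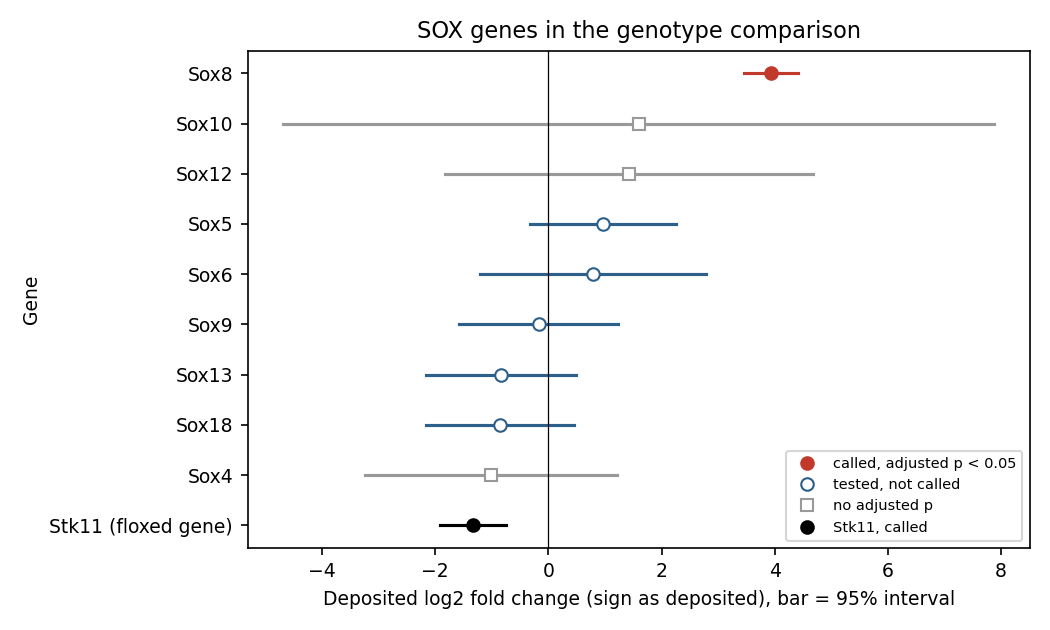
Deposited log2 fold change (horizontal axis, sign as deposited) of the 9 SOX genes and of Stk11, 1 gene per line; bars are 95% intervals from the deposited standard error, filled circles are called genes, open circles tested genes not called and open squares genes with no adjusted p. The interval of Sox8 runs from 3.46 to 4.41, while the intervals of the other 8 SOX genes include 0.

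Among the SoxE genes, Sox8 (ENSMUSG00000024176, mm10 chromosome 17, 25565892 to 25570686, minus strand) had a mean of 526.9 normalized counts and a log2 fold change of 3.94 ± 0.24 (SE) per the authors' deposited table. This is a 15.3-fold difference with a 95% interval of 11.0 to 21.3. The deposited adjusted p was 3.13e-54, the second smallest p of the table, and 4 of the 1644 genes called positive had a fold change at least as large, Sox8 included. Sox8 takes part in testis, glial and neural crest development, where it overlaps in function with Sox9 and Sox10.

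Its group relatives were measured at far lower counts. Sox9 (chromosome 11, 112782224 to 112787760), the regulator of cartilage and of the distal lung epithelium, had a mean of 12.5 normalized counts and a log2 fold change of -0.17 ± 0.72 (SE) per the authors' deposited table. Its 95% interval of -1.58 to 1.23 lies wholly below that of Sox8. Sox10 (chromosome 15, 79154908 to 79165240), the factor of Schwann cells and melanocytes, had a mean of 0.52 normalized counts and a log2 fold change of 1.60 ± 3.21 (SE), with no adjusted p, per the authors' deposited table. The interval of Sox10, from -4.69 to 7.88, includes that of Sox8, so that a change in Sox10 of the same size was not detectable at this count.

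The Sox8 locus also holds an antisense gene, 2810468N07Rik (chromosome 17, 25570358 to 25575043, plus strand), which was singled out after its values were seen. It starts inside the first exon of Sox8 and shares 329 bases with it (25570358 to 25570686), which is 10.6% of the exonic bases of Sox8 and 15.5% of its own. All 250 upstream bases printed above lie in its first exon. 2810468N07Rik had a mean of 67.9 normalized counts and a log2 fold change of 2.17 ± 0.32 (SE), with an adjusted p of 8.03e-10, per the authors' deposited table. Both genes of the pair were called positive. The mean of Sox8 was 7.76 times that of the antisense gene in counts and 5.29 times per kb of exon. No source used here gives the handling of strand, and without it reads in the shared bases cannot be assigned to either gene. The part of Sox8 reads in the antisense count was not tested, so that the antisense call cannot be read as a result separate from that of Sox8.

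The nearest protein-coding genes on each side were Lmf1 and Sstr5. Lmf1, a lipase maturation factor 8.4 kb upstream of the Sox8 start, had a log2 fold change of 0.48 ± 0.17 (SE), with an adjusted p of 0.0291, per the authors' deposited table. Sstr5, a somatostatin receptor gene 68.6 kb from the other end of Sox8, had a mean of 2.59 normalized counts and a log2 fold change of 4.19 ± 1.86 (SE), with no adjusted p, per the authors' deposited table. Of the 3 nearest protein-coding genes on each side, 2 had an adjusted p. Both were called, with opposite signs, against 24.5% called of all tested genes. Besides Lmf1 this was Chtf18, a subunit of a clamp loader complex, 148.2 kb away and at -1.08 ± 0.26 (SE) per the authors' deposited table.

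The SoxD genes gave no call. Sox5 (chromosome 6, 143828425 to 144781977), a partner of Sox6 and Sox9 in cartilage, had a mean of 29.1 normalized counts and a log2 fold change of 0.96 ± 0.66 (SE) per the authors' deposited table. Sox6 (chromosome 7, 115470872 to 116038796), which also acts in muscle and red cell precursors, had a mean of 12.8 normalized counts and 0.79 ± 1.02 (SE) per the authors' deposited table. Sox13 (chromosome 1, 133382303 to 133424377) had a mean of 13.1 normalized counts and -0.84 ± 0.67 (SE) per the authors' deposited table. Their 95% intervals were -0.33 to 2.25, -1.21 to 2.79 and -2.16 to 0.49. All 3 intervals include 0, and the adjusted p values per the authors' deposited table were 0.304, 0.634 and 0.400. In Sox5, 9.25% of the exonic bases overlap the antisense gene Sox5os1, which was not analysed here.

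The SoxC members had too few counts for an adjusted p. Sox4 (chromosome 13, 28948919 to 28953713), a single-exon gene needed for early B and T cell development, had a mean of 6.14 normalized counts and a log2 fold change of -1.01 ± 1.13 (SE) per the authors' deposited table. In the annotation, 54.6% of its exonic bases (2616 bases) lie in Gm26735, a noncoding gene on the opposite strand that was not analysed here. Counting that leaves out reads in shared bases would lower Sox4, and whether this happened was not tested. Sox12 (chromosome 2, 152393611 to 152398063), also with a single exon, had a mean of 2.89 normalized counts and 1.43 ± 1.66 (SE) per the authors' deposited table. The 95% intervals ran from -3.23 to 1.22 for Sox4 and from -1.83 to 4.69 for Sox12.

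Sox18 (chromosome 2, 181669836 to 181671640) had the largest mean count of the members after Sox8. It had a mean of 61.6 normalized counts and a log2 fold change of -0.85 ± 0.66 (SE), with an adjusted p of 0.381, per the authors' deposited table. The other SoxF genes, Sox7 and Sox17, which also act in endothelium, had -1.17 ± 0.94 and 0.00068 ± 0.76 (SE) at means of 84.7 and 36.7 normalized counts per the authors' deposited table. Markers of endothelium had a log2 fold change below 0 in 12 of 13 tested members, with a median of -0.68. Of the 13, 0 were called, against 24.5% of all tested genes and a median of 24.7% among genes within 1.2-fold of each marker's mean. These shares are not matched for error. At the SE of these markers, a call needed from 1.35-fold for Pecam1 to 8.67-fold for Plvap, so that 0 calls does not show unchanged levels. The summed mean of these markers was 7154 normalized counts, led by the adhesion molecule Pecam1 (-0.32 ± 0.17 (SE) per the authors' deposited table), which many leukocytes express too. Their part in the SoxF values was not tested, and in a bulk sample fewer cells of a type and less RNA per cell cannot be told apart.

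Sox8 was measured with a smaller error than the other members. The SE of Sox8 was 0.24, near the median of 0.233 over all tested genes, while the other 5 tested members had an SE between 0.66 and 1.02. Over 1107 genes within 1.2-fold of the mean of Sox8 the median SE was 0.177, so that Sox8 had a wider error than most of these. At their SE, a call would have needed a difference of at least 3.14-fold for Sox5 and up to 5.90-fold for Sox6. Of the 9 members, 8 had a mean under 100 normalized counts. Among all 5247 tested genes under that mean, 9.15% were called, and the median SE was 0.609. Sox18 had a wider error than most genes of its abundance, whose median SE was 0.391 over 699 genes within 1.2-fold of its mean.

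**Figure D2:**
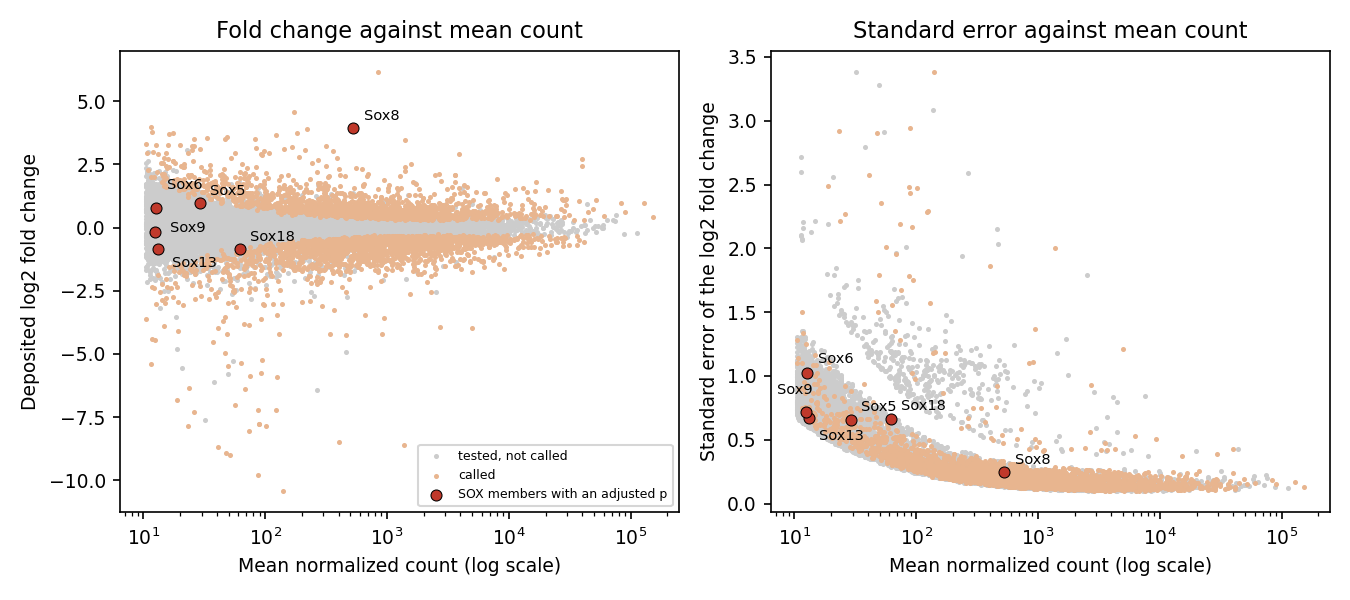
All 14961 genes with an adjusted p, by mean normalized count (horizontal axis, log scale), with the deposited log2 fold change on the left and its standard error on the right; large points are the 6 SOX genes with an adjusted p. Sox8 stands at 3.94 with a standard error of 0.24, while the other 5 lie among the low-count genes with standard errors of 0.66 to 1.02.

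Levels were compared between genes per kb of exon. Sox8 had 169.0 normalized counts per kb, above the median of 67.4 over all tested genes. Sox18 followed with 38.0 per kb, 4.45 times lower. Sox13 and Sox9 had 3.05 and 3.02 per kb, Sox5 2.02, Sox4 1.28, Sox6 0.863, Sox12 0.650 and Sox10 0.172. No spread between samples stands behind these levels, so that neighbours in this order, such as Sox13 and Sox9, cannot be ranked. Sox8 made up 77.5% of the summed level of the 9 members per kb and 79.2% of their summed counts. All these levels are means over the libraries of the fit and not per genotype, while Sox8 differed 15.3-fold between the genotypes. Its rank, its share and its place above the median of 67.4 need not hold in the genotype where Sox8 was lower.

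**Figure D3:**
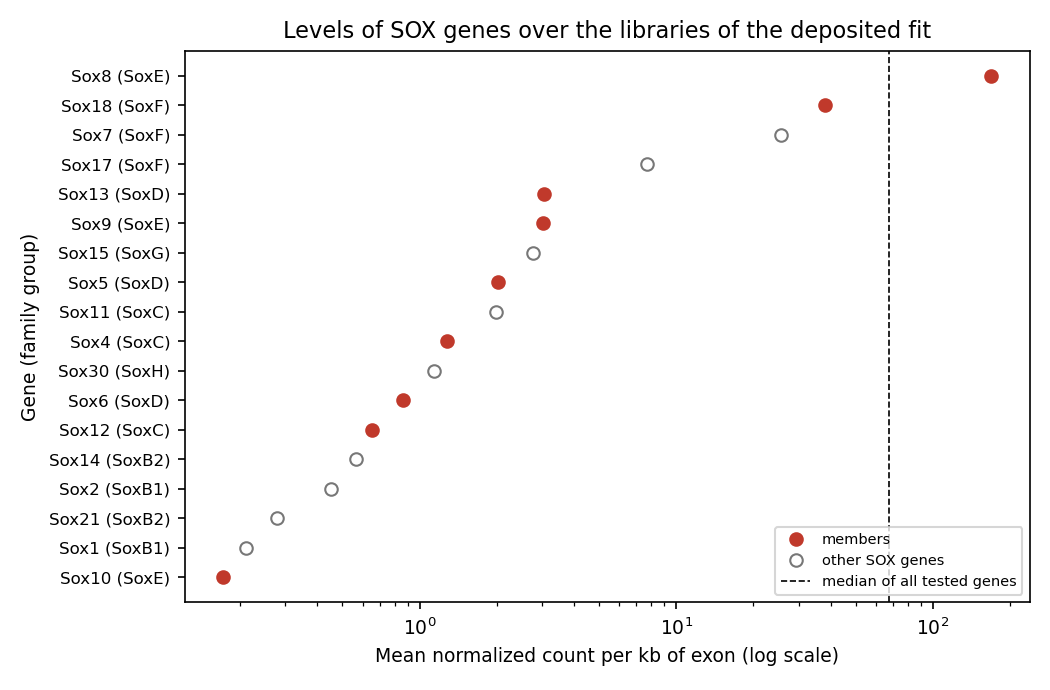
Mean normalized count per kb of exon (horizontal axis, log scale) for the 18 SOX genes listed, 1 gene per line with its family group; filled points are the 9 members, open points the other SOX genes, and the dashed line is the median of all tested genes. Sox8 at 169.0 is the single SOX gene to the right of that line, at 67.4, in these means, which are not per genotype.

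No SOX member shared a 50-base stretch of annotated transcript with another SOX gene that codes for protein. Of all 50-base stretches in the annotated transcripts, 0 were shared with another gene for Sox6, Sox9, Sox10, Sox12, Sox13 and Sox18. For Sox8, 8.99% were shared, all with 2810468N07Rik, and for Sox4 54.1%, all with Gm26735. For Sox5 the share was 8.98% (1306 stretches), with Sox5os1, which overlaps 1330 exonic bases of Sox5, and with many other genes. How these stretches divide between the genes was not counted.

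The rest of the family gave no further call. The table listed 18 of the 20 SOX genes of the mouse family list, and Sox3 and Sry were not analysed here. Of the 9 that are not members, 3 had an adjusted p (Sox7, Sox11 and Sox17) and 0 were called, with 0 at an unadjusted p under 0.05 per the authors' deposited table. Sox11, the third SoxC gene, had 0.65 ± 0.74 (SE) at a mean of 16.6 normalized counts per the authors' deposited table. The 6 others, Sox1, Sox2, Sox14, Sox15, Sox21 and Sox30, had means between 0.93 and 3.42 normalized counts per the authors' deposited table. Sox2, which marks the conducting airway epithelium, was at the low end of that range.

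Genes known as targets of SoxE proteins in neural crest, glia or cartilage were called positive in 3 and negative in 0 of 10 tested members. This is 30%, against 24.5% called of all tested genes. The median log2 fold change of the 10 was 0.56. The other 13 of the 23 had no adjusted p. Ret, the receptor of GDNF-family ligands, had a log2 fold change of 2.53 ± 0.18 (SE) at a mean of 1574 normalized counts per the authors' deposited table. Ednrb, the endothelin B receptor, had 2.34 ± 0.25 (SE) at a mean of 557 normalized counts per the authors' deposited table. Mbp, whose locus also gives transcripts in blood cells, had 0.51 ± 0.16 (SE) and was the most abundant of the list per the authors' deposited table. Cartilage genes on the list were low, with Col2a1 at a mean of 17.2 and Acan at 3.06 normalized counts per the authors' deposited table.

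Markers of the glial and melanocytic lineages that use SoxE factors spanned a wide range of counts. Of 13 Schwann cell and melanocyte markers, 9 had no adjusted p, and 1 of the 4 tested (Mbp) was called (25%, near the 24.5% of all tested genes). The glial cadherin Cdh19 had a mean of 2.08, the neural crest factor Foxd3 1.21 and the melanin enzyme Dct 0.434 normalized counts per the authors' deposited table, while Pmp22 had 216.7 and Mbp 4153, both also expressed outside glia. The part of these cells in the SoxE values was not tested. Markers of epithelium, where Sox9 acts in the distal lung, were called in 0 of 12 tested members, against 24.5% of all tested genes. At their SE, a call needed from 1.63-fold for Cdh1 to 6.61-fold for Ager, so that 0 calls does not show unchanged levels. The median log2 fold change of the epithelial markers was -1.11, with 9 below 0. Fibroblast and chondrocyte markers had a median of -1.52, with 9 of 11 below 0. Of the 11, 1 was called (9.09%, against 24.5% of all tested genes), the receptor Pdgfrb at -1.63 ± 0.34 (SE) per the authors' deposited table. Here a call needed from 1.46-fold for Fn1 to 8.70-fold for Acta2. Surfactant gene Sftpc, the most abundant epithelial marker, had -1.18 ± 0.84 (SE) at a mean of 7594 normalized counts per the authors' deposited table. Their part in the SOX values was not tested. B and plasma cell markers were called negative in 3 of 6 tested members and positive in 0, against 13.5% of all tested genes called negative, with Ighm at -1.56 ± 0.53 (SE) and Cd79b at -0.88 ± 0.23 (SE) per the authors' deposited table. Myeloid markers were called negative in 2 of 14 (14.3%, near that share) and positive in 0, with the eosinophil receptor Ccr3 at -1.45 ± 0.38 (SE) and the macrophage lysozyme Lyz2 at -0.75 ± 0.80 (SE) per the authors' deposited table.

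Genes tied to Sox4 were measured through TGF-beta input, which induces Sox4 in T cells, and through SoxC targets. Of 12 tested members, 2 were called positive and 1 negative, with a median log2 fold change of 0.21. The share called, 25%, was near the 24.5% of all tested genes. It was below a median of 35.3% among genes within 1.2-fold of each member's mean. Tgfb1 had a log2 fold change of 0.50 ± 0.19 (SE) and the receptor gene Tgfbr2 0.35 ± 0.13 (SE) per the authors' deposited table. Ezh2, the catalytic subunit of PRC2, had -0.87 ± 0.15 (SE) per the authors' deposited table. The most abundant member, the SMAD corepressor Skil, had 0.39 ± 0.16 (SE) with an adjusted p of 0.0628 per the authors' deposited table.

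The gamma-delta programme in which Sox13 is known had 1 positive and 2 negative calls among 12 tested members (25%, near the 24.5% of all tested genes). Its median log2 fold change was 0.10. Zbtb16, which encodes PLZF, had 0.78 ± 0.29 (SE) per the authors' deposited table. The receptor constant segment Tcrg-C1 had -1.64 ± 0.25 (SE) and the cytokine gene Il17a -1.25 ± 0.43 (SE) per the authors' deposited table. The most abundant member, the variable segment Trdv4, had 0.19 ± 0.17 (SE) per the authors' deposited table. Of the T cell markers, 2 of 9 tested were called (22.2%, near the share of all tested genes), both negative, with Lck at -0.90 ± 0.17 and Cd3g at -0.66 ± 0.19 (SE) per the authors' deposited table. The 9 markers did not share a sign, with 6 below 0 and 3 above. Their part in the value of Sox13 was not tested.

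Proteins that partner, import or modify SOX factors were called in 7 of 16 members, 2 positive and 5 negative. This is 43.8%, against 24.5% of all tested genes and a median of 38.5% among genes within 1.2-fold of each member's mean. The median log2 fold change of the list was 0.046. Ctbp1, a corepressor, had -0.88 ± 0.25 (SE) and the import receptor Kpnb1 -0.88 ± 0.23 (SE) per the authors' deposited table. The Mediator subunit Med12 was positive at 0.50 ± 0.12 (SE) per the authors' deposited table. Ctbp2, the partner described for SoxD proteins, had 0.07 ± 0.20 (SE) and was not called per the authors' deposited table.

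Other HMG-box proteins were called negative in 10 and positive in 2 of 21 tested members. This is 57.1%, against 24.5% of all tested genes and a median of 36.5% among genes within 1.2-fold of each member's mean. The median log2 fold change of the list was -0.31. Tox2 had the largest value at -2.63 ± 0.25 (SE) per the authors' deposited table. The chromatin proteins Hmgb3 and Hmgb2 had -1.23 ± 0.18 and -0.98 ± 0.16 (SE), and the replication factor Wdhd1 -1.03 ± 0.21 (SE), per the authors' deposited table. Tcf7, the TCF-1 factor of lymphoid progenitors, had -1.004 ± 0.23 (SE) per the authors' deposited table. The called positive members were Tox at 0.77 ± 0.12 (SE) and Bbx at 0.43 ± 0.16 (SE) per the authors' deposited table.

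**Figure D4:**
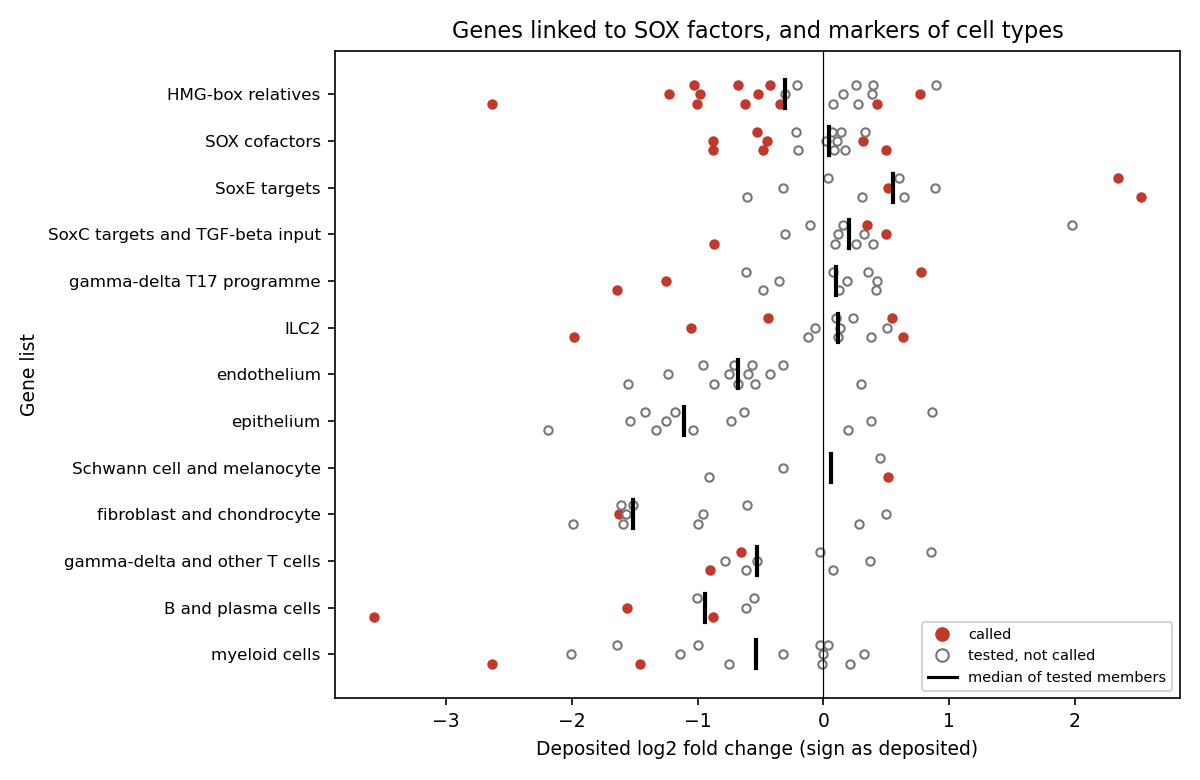
Deposited log2 fold change (horizontal axis, sign as deposited) of the tested members of 5 lists linked to SOX factors and 8 lists of cell type markers, 1 point per gene; filled points are called genes and black bars medians of the tested members. Ret at 2.53 and Ednrb at 2.34 stand apart among the SoxE targets, and the called HMG-box relatives lie mostly below 0, 10 against 2.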

How the data were processed

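RNA was sequenced from 6 samples of sorted lung ILC2s, with full-length cDNA (SMART-Seq HT kit) and transposase-based libraries, per the labels' protocols. HISAT2, Cufflinks and mm10 are named in the submitters' processing notes, with no versions; no source used here gives the counting tool, annotation or strand setting. Per the file headers, the authors deposited 6 values a gene: the mean of normalized counts (a signal over the libraries of their fit), the log2 fold change, its standard error, the score of the test, and the p-value before and after adjustment. The deposited score equals fold change over standard error to within 2.4e-07, and the adjusted p a Benjamini-Hochberg adjustment to within 7.6e-07. Which libraries entered that fit is not given, and its p-values may not be those of 3 against 3 samples. The 12 per-sample columns, under 6 names, match no label and were not used; the planned count test was therefore replaced by the authors' comparison.

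Genes were called at an adjusted p under 0.05. The 95% intervals assume a normal distribution. The size needed for a call is the SE times 2.51, the score at the largest called p. Gene models came from GENCODE M21 (GRCm38), which held 39191 of 39527 identifiers (99.1%); levels were divided by the union of exons. Lowess trends on exonic length and GC content (statsmodels 0.14.6) were removed in an alternative over 13036 protein-coding genes. Calls and trend removal were tested on simulated data. Scripts ran in Python 3.11.15 with scipy 1.17.1, numpy 2.4.6, pandas 2.3.3 and, for figures, matplotlib 3.10.9.

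The members and lists were chosen with earlier results of these data known. Named genes are all members, other SOX genes, Stk11, genes next to a called member, in each linked list the 4 largest called changes and the most abundant member, and in each marker list the most abundant member and that with the smallest p; others were named after their values were seen. A few genes of the lists are not reported here.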

Additional observations from a re-analysis of the deposited data

How the results depend on the processing

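Sox8 was the single member called at an adjusted p under 0.01 and 0.1, with p adjusted over every gene with a p or over genes with a mean of at least 100, and with at least a 2-fold difference required; 0 members were called negative under each. At a deposited adjusted p of 3.13e-54 Sox8 could not lose its call through these thresholds, and no other member has a mean of at least 100. These settings therefore put the call of Sox8 to no real test. The count over all genes moved from 3668 to 2363 at 0.01 and to 1142 with the 2-fold minimum. With the median of all genes removed, or with the length and GC trends removed, 15 of 15 recomputed member fold changes stayed within 1 SE of the deposited value. Of these, 0 changed sign, and the largest shift was 0.19, with the trends removed. The median removed was -0.0056, too small to move any member by 1 SE or to change a sign, so that this part was fixed in advance. For the trends, the 5 tested members other than Sox8 had an SE of at least 0.66, so that staying within 1 SE says little for them. Sox8 had 4.03 with the trends removed. Fold change correlated with exonic length over the 13036 protein-coding genes (Spearman rho 0.26). List medians moved with the trends removed, where only protein-coding genes have values. They went from 0.046 to -0.043 for SOX cofactors and from 0.56 to 0.41 for SoxE targets. For the gamma-delta programme the median went from 0.10 to 0.36, and for T cell markers from -0.52 to -0.087. The trends were not removed for Sox4, Sox10 and Sox12, which have no adjusted p. No paired analysis was possible because the per-sample columns match no label, and for that reason the edgeR and DESeq2 fits, the count filters and the fits that leave out 1 sample were not run. Whether 1 library carries a value was not tested. Low counts limit every member except Sox8.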

Other observations

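The protein-coding genes around the members gave a few large values, named here after they were seen. The 3 on each side of every member, in order of gene start, gave 53 gene symbols, with values matched by identifier. Of these symbols, 33 had an adjusted p and 11 of the 33 were called (33.3%, against 24.5% of all tested genes), 6 positive and 5 negative. Beyond the far end of Sox6, Calca, which encodes the neuropeptide CGRP, had a log2 fold change of 2.45 ± 0.24 (SE) at a distance of 834.5 kb per the authors' deposited table. Its relative Calcb, 747.5 kb away, had 1.97 ± 0.53 (SE) per the authors' deposited table, while Sox6 itself had 0.79 ± 1.02 (SE). Next to Sox5, at 211.9 kb, the amino acid transaminase gene Bcat1 had -2.00 ± 0.53 (SE), with an adjusted p of 0.0016, per the authors' deposited table. Sox5 had the opposite sign at 0.96 ± 0.66 (SE) and was not called.

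Gjc3 and Dcx had large values with no call. Gjc3, a glial gap junction gene among the SoxE targets, had 4.50 ± 1.68 (SE) at a mean of 3.21 normalized counts, with no adjusted p, per the authors' deposited table. Dcx, a neuronal gene among the SoxC targets, had 1.98 ± 0.95 (SE) at a mean of 15.1 normalized counts per the authors' deposited table.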
